A study of Caenorhabditis elegans with 2 samples.

Results

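The nuclear hormone receptor genes described here were the 269 protein-coding genes whose symbol begins with nhr- in the Ensembl annotation of WBcel235, the Caenorhabditis elegans assembly also called ce11, of 19973 protein-coding genes on the nuclear chromosomes. The other 19704 genes served as the comparison. Binding of UNC-62 was mapped by chromatin immunoprecipitation and sequencing (ChIP-seq) in whole young adults at 4 days, with males and females pooled, in 1 group with 2 biological replicates. All worms were of strain OP600, a background with the ed3 allele of unc-119 in which the transgene wgIs600 supplies unc-62 with the tags TY1, EGFP and FLAG, marked with unc-119. No label names the promoter or the copy number of the fusion. As labelled, the antibody was against unc-62 while the experiment was against eGFP-unc-62, so tagged and native UNC-62 cannot be told apart in these peaks. No second condition was measured, so no test between conditions was possible, and all comparisons between groups of genes are descriptions without a test.

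Nuclear hormone receptors are transcription factors with a zinc-finger domain that binds DNA and, in most, a pocket that binds a small lipophilic ligand such as a steroid, bile acid or fatty acid. The family is greatly expanded in nematodes, where most members are related to the vertebrate receptor HNF4. Worm members with known roles act in fat metabolism, moulting, detoxification and development. UNC-62 is the worm homeodomain protein of the Meis and Homothorax class, whose vertebrate relatives bind the DNA word TGACAG. A peak says that the factor was found at a place in the genome, not that the nearby gene changed its expression. In whole worms, binding in more cells and stronger binding per cell cannot be told apart.

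The 101 bases centred on the peak summit are printed first for 9 sites that carry the results below, each read from the ce11 assembly as distributed by RefSeq and turned to run in the direction of the receptor gene. Capitals mark TGACAG or its reverse complement CTGTCA in the first 4 sequences, and TGATNNAT, a word with 2 free bases, or its reverse complement in the next 3. The last 2 hold neither word and are shown as strong sites without them. A word here is a match of letters and not a mapped site.
nhr-1, chrX:17518002-17518102, plus strand: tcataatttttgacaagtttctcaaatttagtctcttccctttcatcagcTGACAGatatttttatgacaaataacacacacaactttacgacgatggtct
nhr-232, chrV:10255316-10255416, plus strand: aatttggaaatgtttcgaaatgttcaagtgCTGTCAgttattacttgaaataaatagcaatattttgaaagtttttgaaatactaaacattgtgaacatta
nhr-3, chrX:14558133-14558233, plus strand: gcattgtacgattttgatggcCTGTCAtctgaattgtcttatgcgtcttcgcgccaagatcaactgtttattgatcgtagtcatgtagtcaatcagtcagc
nhr-76, chrIV:626337-626437, plus strand: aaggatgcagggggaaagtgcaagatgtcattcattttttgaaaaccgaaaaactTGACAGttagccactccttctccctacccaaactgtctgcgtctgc
nhr-46, chrIV:5756147-5756247, minus strand: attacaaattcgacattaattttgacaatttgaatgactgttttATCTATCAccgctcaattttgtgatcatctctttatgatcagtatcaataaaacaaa
nhr-105, chrIV:7049811-7049911, plus strand: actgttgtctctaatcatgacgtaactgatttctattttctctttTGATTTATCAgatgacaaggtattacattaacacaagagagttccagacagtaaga
nhr-57, chrV:4131637-4131737, plus strand: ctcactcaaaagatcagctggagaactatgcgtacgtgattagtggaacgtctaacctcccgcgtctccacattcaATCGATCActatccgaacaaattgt
nhr-71, chrX:13746394-13746494, plus strand: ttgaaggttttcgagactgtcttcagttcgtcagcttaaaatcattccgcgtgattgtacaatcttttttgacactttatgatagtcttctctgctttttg
nhr-19, chrII:9603531-9603631, minus strand: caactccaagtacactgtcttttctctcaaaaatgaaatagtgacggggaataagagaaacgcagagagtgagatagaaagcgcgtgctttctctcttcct

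In nhr-1 the word TGACAG began 0 bases from the summit. In nhr-232 and nhr-3 its reverse complement began 20 and 29 bases before the summit. The word began 5 bases after the summit upstream of nhr-76. In nhr-105 a pair of overlapping TGATNNAT matches on opposite strands began 5 bases before the summit. All 9 stretches lay outside annotated exons, in introns or upstream of the gene.

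The peaks came in 4 lists. Each replicate had a relaxed list that holds weak and background regions by design, with 30000 peaks in replicate 1 and 28092 in replicate 2. A list called on both replicates together, named the pooled list here, held 19023 peaks. The list thresholded by the irreproducible discovery rate (IDR), a measure of how well peak ranks agree between replicates, held 843 peaks, of which 815 were nuclear. These 843 were also the 843 strongest peaks of the pooled list. A single listed peak therefore need not rank alike in both replicates. The strength of a peak is the signal value deposited by the authors, on a scale not stated in the sources. It ran from 31.2 to 514 in the IDR-thresholded list, with a median of 40.2, and had a lower end of 8.57 in the pooled list. Read depth per replicate is unknown, so intervals on shares cover counting of genes only. A promoter was taken as 1000 bp upstream to 200 bp downstream of any annotated transcript start, and a gene-body site as a summit inside the gene outside those windows. The first start of a gene is its annotated start farthest upstream.

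UNC-62 had an IDR-thresholded site in the promoter or body of 12 of the 269 receptor genes. A promoter site was found in 10 of them: nhr-35, nhr-1, nhr-71, nhr-49, nhr-232, nhr-105, nhr-48, nhr-57, nhr-3 and nhr-68, in order of signal. Gene-body sites lay in 3 members, nhr-46, nhr-3 and nhr-19, and nhr-3 had a site of each kind. These were 14 distinct peaks, 0 of them shared by 2 members, and all 14 overlapped a peak in both replicate lists. The promoter sites ranged from 31.58 to 81.0 in signal, and the strongest of them ranked 47 among the 843 peaks.

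**Figure D1:**
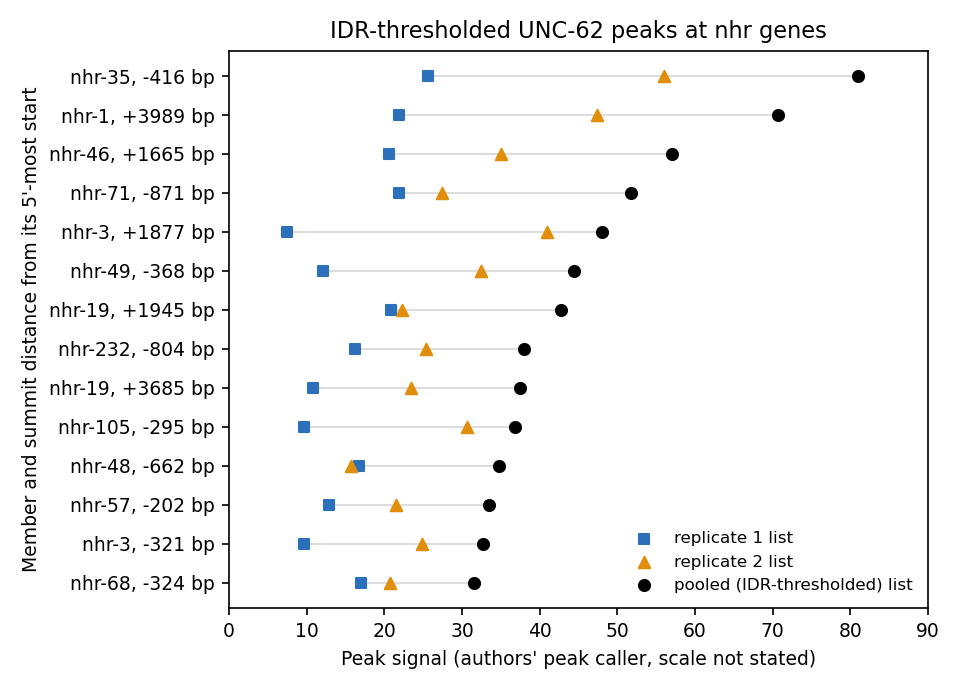
Signal of the 14 IDR-thresholded peaks at receptor genes (horizontal axis, the authors' peak signal, scale not stated), with 1 row per peak named by its gene and the distance of its summit from the first start. Blue squares and orange triangles are the strongest overlapping peaks of replicate 1 and replicate 2 and black circles the pooled value. The orange triangle lies to the right of the blue square in 13 rows and to the left of it for nhr-48.

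Replicate 2 had the higher signal at 13 of the 14 peaks, and replicate 1 at nhr-48 alone. The ratio of replicate 1 to replicate 2 had a median of 0.525 over the 14 peaks, with a range of 0.181 to 1.07. Over the other 801 nuclear IDR-thresholded peaks, of which 793 were found in both replicates, the median was 0.534 and replicate 2 was higher in 720. The receptor sites thus had a ratio near that of the list as a whole. Whether the replicate lists share a scale or a depth is not stated in the sources.

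Among receptors of metabolism, nhr-49 and nhr-68 carried IDR-thresholded promoter sites. nhr-49 (WBGene00003639), which is known for switching on fatty acid desaturation and oxidation, lies at chrI:9869651-9874680. Its peak at chrI:9869123-9869442 had a signal of 44.42 in the pooled list, with 12.15 in replicate 1 and 32.45 in replicate 2. The summit lay 368 bp upstream of the first of its 6 start positions, in a gap of 586 bp to the neighbouring gene. The pooled list added a weaker pair of sites at its internal starts, with signals of 13.51 and 13.04.

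nhr-68 (WBGene00003658, chrV:11573440-11575709) acts with nhr-10 in the circuit that turns on the alternative pathway of propionate breakdown when vitamin B12 is low. Its peak at chrV:11572956-11573275 had a pooled signal of 31.58, close to the lower end of the list, with 17.04 in replicate 1 and 20.71 in replicate 2. The summit lay 324 bp upstream of nhr-68 and 126 bp upstream of H12C20.7, so the peak cannot be given to one of these genes alone. Its partner nhr-10 had a pooled promoter signal of 9.29 and no overlapping peak in either replicate list. Replicate 1 had a promoter summit of 9.358 at nhr-10 away from that pooled peak.

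Of the 9 metabolic receptors listed, 2 had an IDR-thresholded promoter site, against 2.43% of all genes. A pooled promoter site was found in 7 of them (77.8%), against 33.2% of all genes, with a median signal of 21.31. nhr-80, which promotes oleic acid synthesis, had a pooled promoter signal of 21.97, with 6.555 in replicate 1 and 12.92 in replicate 2, at a summit it shared with H10E21.1. nhr-114, linked to vitamin B12 and to protection of the germline from dietary toxicity, had 21.31, with 12.65 in replicate 1 and 6.583 in replicate 2, 38 bp downstream of its start. The replicates were thus ordered differently at nhr-80 and nhr-114. The nhr-114 summit also lay inside another gene, Y45G5AM.9. nhr-66, a partner of NHR-49 in lipid metabolism, had 19.96 at an internal start, with 5.442 in replicate 1 and 8.812 in replicate 2. nhr-13, another partner of NHR-49, had 10.17, with 8.106 in replicate 2 and no overlapping peak in replicate 1. nhr-64 had a pooled site in its body alone, of 12.64, and nhr-62, needed for the long life of diet-restricted worms, had no summit in any list.

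Among receptors of stress and foreign compounds, nhr-57 had an IDR-thresholded promoter site. nhr-57 (WBGene00003647, chrV:4131889-4135102) is a target of the hypoxia factor HIF-1. Its peak at chrV:4131527-4131846 had a pooled signal of 33.44, with 12.81 in replicate 1 and 21.54 in replicate 2, and its summit lay 202 bp upstream of the start, the nearest of the 10 promoter summits. This was 1 promoter site among the 5 genes of the list, against 2.43% of all genes. All 5 genes had a pooled promoter site, against 33.2% of all genes, with a median of 16.43. nhr-8, which acts in xenobiotic resistance and cholesterol balance, had 19.9, with 4.331 in replicate 1 and 14.14 in replicate 2. nhr-14, linked to iron uptake, had 16.43 in its promoter, and a stronger site below the IDR threshold in its body. nhr-176, which drives breakdown of the drug thiabendazole, had 10.89, with 5.194 in replicate 1 and no overlapping peak in replicate 2. That summit lay 720 bp upstream of nhr-176 and inside another gene, cyp-35D1, so it cannot be given to nhr-176 alone. nhr-86, linked to defence against pathogens, had 8.885, with 5.889 in replicate 1 and no overlapping peak in replicate 2. Replicate 2 had a promoter summit of 5.35 at nhr-86 away from that pooled peak.

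Of the 13 receptors with a clear counterpart in insects or vertebrates, nhr-48 was the one with an IDR-thresholded promoter site, against 2.43% of all genes. nhr-48 (WBGene00003638, chrX:15708213-15716875) belongs with nhr-8 and daf-12 to the group of the vertebrate vitamin D and xenobiotic receptors. Its peak at chrX:15707391-15707710 had a pooled signal of 34.74, with 16.73 in replicate 1 and 15.69 in replicate 2, and its summit lay 662 bp upstream of the start. In this list 8 of the 13 (61.5%) had a pooled promoter site, against 33.2% of all genes, with a median of 16.7. The list overlaps the others in nhr-8, nhr-64 and the moulting and developmental receptors.

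The remaining pooled promoter signals of that list were 18.58 for nhr-111, 17.45 for nhr-41, 15.95 for nhr-69, 11.94 for nhr-23, 10.74 for nhr-67 and 9.317 for nhr-25. nhr-41, the relative of fly DHR78, had peaks of 10.56 in replicate 1 and 7.545 in replicate 2. nhr-69, of the HNF4 group, and nhr-111 had an overlapping peak in replicate 2 alone, of 8.609 and 7.527. nhr-91, the relative of vertebrate GCNF, and nhr-85, of the Rev-Erb and E75 group, had pooled sites in their bodies alone, of 18.91 and 10.36. nhr-6, the worm NR4A receptor, and nhr-239 had summits in the replicate lists but none in the pooled list.

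The 8 developmental receptors had 0 IDR-thresholded sites in promoter or body, against 3.08% of all genes with one, so that a list of this size says little. A pooled promoter site was found in 4 of them, against 33.2% of all genes, with a median signal of 11.34. nhr-23, the relative of ROR and fly DHR3 that drives moulting, had 11.94, with 7.953 in replicate 1 and 4.757 in replicate 2. nhr-67, the relative of fly tailless, had 10.74, with 7.298 in replicate 2 and no overlapping peak in replicate 1. nhr-40, needed for muscle development, had 15.15, with 5.575 in replicate 1 and 9.796 in replicate 2. nhr-25, the Ftz-F1 relative that acts in moulting and the epidermis, had a body site of 20.37, above its promoter site. nhr-2 had a pooled body site of 16.41 and nhr-60 a promoter summit in the replicate 1 list alone.

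The strongest sites of the family lay at members for which no role is given here. nhr-35 (WBGene00003628, chrX:4532691-4537546) had the strongest, at chrX:4532115-4532434, with a pooled signal of 81.0, and 25.63 in replicate 1 and 55.96 in replicate 2. Its summit lay 416 bp upstream of the start. nhr-71 (WBGene00003661, chrX:13747315-13751797) had 51.78 at chrX:13746284-13746603, with 21.89 in replicate 1 and 27.48 in replicate 2, 871 bp upstream of its start. Both lie on chromosome X behind long upstream gaps, of 6154 bp for nhr-35 and 12907 bp for nhr-71.

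nhr-232 (WBGene00012494, chrV:10256170-10258783) had a pooled signal of 38.03 at chrV:10255206-10255525, with 16.21 in replicate 1 and 25.34 in replicate 2. That summit was 804 bp upstream of nhr-232 but 311 bp upstream of rop-1, which encodes the worm Ro RNA-binding protein and has the nearer start. nhr-105 (WBGene00003695, chrIV:7050156-7053450) had 36.77 at chrIV:7049701-7050020, 295 bp upstream of its start, with 9.621 in replicate 1 and 30.64 in replicate 2. A second IDR-thresholded peak of 31.58 lay 1250 bp upstream of nhr-105, outside the promoter window. Of the 10 promoter sites, those of nhr-68 and nhr-232 were the ones with another gene's start in reach.

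Beyond the window, nhr-76 and nhr-21 were the nearest genes of IDR-thresholded peaks farther upstream. nhr-76, which acts in the intestine in serotonin-driven fat loss, had a peak of 56.18 at chrIV:626227-626546, with 17.14 in replicate 1 and 37.73 in replicate 2, 1150 bp upstream of its start. That signal exceeded those of 8 of the 10 promoter sites. The peak of nhr-21, at chrII:7337518-7337837, had 39.58, with 14.01 in replicate 1 and 25.95 in replicate 2, 1551 bp upstream. Neither gene is counted among the 12.

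nhr-1 was the member whose IDR-thresholded promoter site lay at an internal start. An internal start was one more than 500 bp downstream of the first start of the gene. nhr-1 (WBGene00003600, chrX:17514063-17528197) has 4 start positions, and its peak at chrX:17517892-17518211 had a pooled signal of 70.72, with 21.84 in replicate 1 and 47.34 in replicate 2. The summit lay in an intron 3989 bp downstream of the first start and 387 bp upstream of the start shared by transcripts R09G11.2a.3 and R09G11.2c.2. At the first start, the pooled list had a weaker summit, of 22.38, with 7.113 in replicate 1 and 15.13 in replicate 2.

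The other intronic sites were not near an annotated internal start. nhr-46 (WBGene00003636, chrIV:5747363-5757862) had a pooled signal of 57.06 at chrIV:5756037-5756356, with 20.64 in replicate 1 and 35.05 in replicate 2, 1665 bp into the gene. nhr-19 (WBGene00003618, chrII:9598180-9605526) had a pair of sites in 1 intron. The one at chrII:9603421-9603740, 1945 bp downstream of the first start, had 42.71, with 20.85 in replicate 1 and 22.33 in replicate 2. The one at chrII:9601681-9602000, 3685 bp downstream, had 37.44, with 10.76 in replicate 1 and 23.46 in replicate 2. In both nhr-46 and nhr-19 the sites lay in the long intron that precedes most exons.

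nhr-3 (WBGene00003602, chrX:14558504-14561432) was the member with both kinds of site. Its intronic peak at chrX:14560221-14560540, 1877 bp into the gene, had 48.08, with 7.405 in replicate 1 and 40.94 in replicate 2. Its promoter peak at chrX:14558023-14558342, 321 bp upstream, had 32.76, with 9.648 in replicate 1 and 24.83 in replicate 2. The intronic peak ranked 131 in replicate 2 and 4267 in replicate 1, the widest gap between replicates among the 14 peaks.

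**Figure D2:**
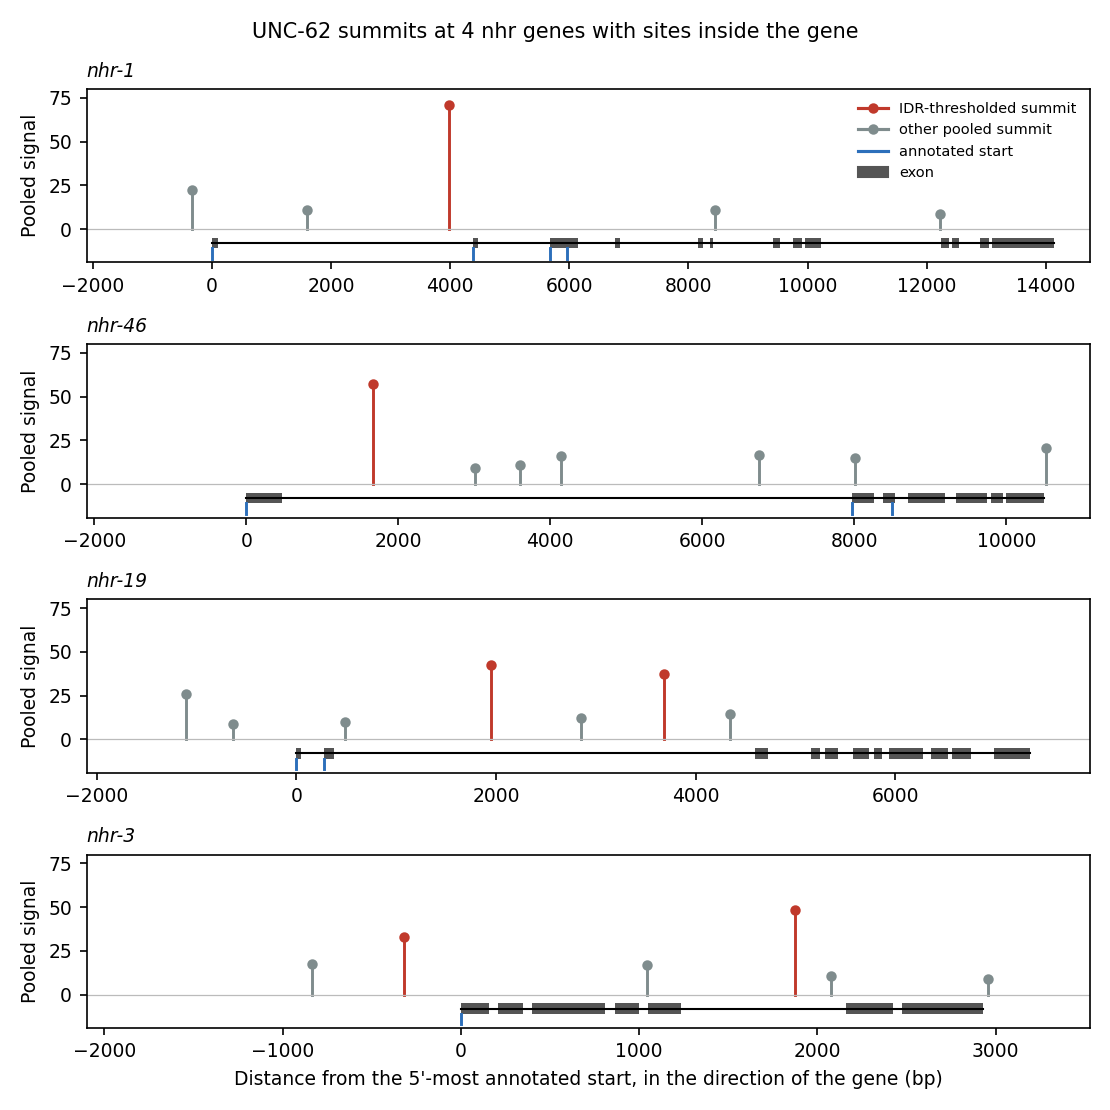
Summits of the pooled list along nhr-1, nhr-46, nhr-19 and nhr-3, with distance from the first annotated start in the direction of the gene (horizontal axis, bp) and pooled signal (vertical axis, scale not stated). Red stems are IDR-thresholded summits and grey stems other pooled summits. Dark boxes are exons and blue ticks annotated starts. The red stem of nhr-1 stands at 3989 bp, just before an internal start, and those of nhr-46 and nhr-19 stand in an intron.

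In the pooled list, 15 members had a summit at an internal start. After nhr-1 with 70.72 came nhr-66 with 19.96, nhr-41 with 17.45, nhr-40 with 15.15, nhr-46 with 15.01 and nhr-49 with 13.51, and the lowest signal was 8.751. Of the receptor genes, 49 (18.2%) had an internal start, against 14.4% of the other genes. Among genes with one, a pooled site lay there in 15 of 49 members (30.6%), against 911 of 2829 other genes (32.2%), and an IDR-thresholded one in 1 member (2.04%), against 64 other genes (2.26%). Members were therefore close to other genes in this respect. Over all genes the share with a site at an internal start was 0.325% in the IDR-thresholded list and 4.64% in the pooled list.

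Within the gene bodies of all members the pooled list held 141 summits. Of these 93 were in introns, 31 in coding sequence, 5 in a 5' UTR and 12 in a 3' UTR. nhr-27, the longest member with 102756 bp, held 20 of the 141. Its range overlaps other genes, among them gei-3, pgp-13 and alh-13, and most of the 20 summits had the start of another gene nearer. They therefore cannot be given to nhr-27 alone.

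The IDR threshold fell between nhr-68, just inside with a signal of 31.58, and a pair of gene-body sites just outside with 28.83 each. nhr-14 had its site in an intron, with 10.1 in replicate 1 and 21.04 in replicate 2, and nhr-22 had its site in coding sequence, with 6.948 in replicate 1 and 19.78 in replicate 2. The next body sites were those of nhr-137 with 9.411 in replicate 1 and 16.94 in replicate 2, and, in the pooled list, nhr-107 with 20.81 and nhr-25 with 20.37. The strongest promoter sites outside were those of nhr-97 with 27.79, nhr-131 with 27.54, nhr-206 with 27.05, nhr-32 with 26.27 and nhr-135 with 25.75.

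The replicates ordered these sites differently. nhr-97 had 13.75 in replicate 1 and 12.29 in replicate 2, and nhr-135 had 15.03 in replicate 1 and 10.22 in replicate 2. nhr-32 had 4.343 in replicate 1 and 21.62 in replicate 2. In all, 13 members had a pooled promoter signal above 20 without an IDR-thresholded one, so the 10 promoter members were the upper end of a continuous range.

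A larger share of receptor genes than of other genes had an UNC-62 summit in the promoter. In the IDR-thresholded list it was 10 of 269 (3.72%, exact 95% binomial interval 1.80 to 6.73%), against 476 of 19704 (2.42%), and 2.43% of all genes. The share of other genes lay within the interval of the members. In the pooled list it was 41.3% of members (interval 35.3 to 47.4%), against 33.1% of other genes, and 33.2% of all genes. The median signal of the best pooled promoter site was 12.49 in the members that had one and 12.54 in the other genes. Genes are not replicates, so these intervals say nothing of the spread between worms.

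Gene bodies gave smaller counts in the IDR-thresholded list. A body site was found in 3 members (1.12%, interval 0.231 to 3.22%), against 0.761% of other genes, and 0.766% of all genes. Promoter and body together gave 12 members (4.46%), against 3.06% of other genes, and 3.08% of all genes. In the pooled list 86 members (32.0%) had a body site, against 27.0% of other genes and 27.0% of all genes, and 156 (58.0%) had a site in either place, against 48.5% of other genes and 48.7% of all genes. The IDR-thresholded shares were thus close to the background, and the pooled ones stood somewhat above it.

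Receptor genes were also longer at the median and had wider gaps upstream. Their median length was 2309 bp, against 2020.5 bp in other genes, and the median gap to the neighbouring gene upstream was 1590 bp, against 934 bp. The promoter window of a start has a fixed length whatever the gap. Whether length or spacing has a part in the shares was not tested. Members had 10 IDR-thresholded summits in 400.5 kb of promoter window, and other genes 497 in 28617.7 kb, a density 1.44 times as high in members. The pooled list gave 330 summits per megabase of promoter window in members and 277 in other genes, 1.19 times as high. Per megabase of gene length members had 4.32 and other genes 2.63 body summits in the IDR-thresholded list, and 152 and 129 in the pooled list. Density was higher in members on each of these 4 measures, with 10 and 4 summits of members behind the IDR-thresholded ones.

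The replicate lists differed in the size of the excess at promoters, and in its direction for promoter or body together. Promoter summits were found in 122 members (45.4%) in replicate 1, against 42.9% of other genes and 42.9% of all genes. In replicate 2 they were found in 125 members (46.5%), against 41.7% of other genes and 41.8% of all genes. Both lists held a promoter summit for 74 members, replicate 1 alone for 48, replicate 2 alone for 51 and neither for 96. No summit of any list lay in the promoter or body of 42 members.

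Cut to its 843 strongest peaks, replicate 1 placed a promoter site at 12 members (4.46%), against 2.41% of other genes and 2.44% of all genes. Replicate 2 placed one at 9 members (3.35%), against 2.35% of other genes and 2.37% of all genes. nhr-1, nhr-35, nhr-57, nhr-71 and nhr-232 were in the IDR-thresholded list and in both of these. Replicate 1 lacked nhr-3, nhr-49 and nhr-105 and added nhr-14, nhr-47, nhr-97, nhr-114 and nhr-135. Replicate 2 lacked nhr-48 and nhr-68 and added nhr-32. The pooled promoter summits of nhr-47 also lay in the promoter window of dnj-19. The count of members thus held in each replicate while part of the names changed.

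**Figure D3:**
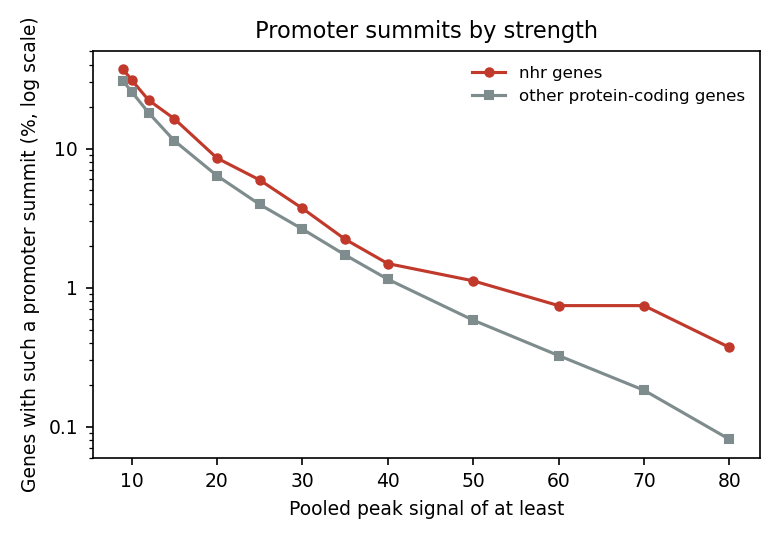
Percent of receptor genes (red circles) and of other protein-coding genes (grey squares) whose promoter held a pooled summit of at least the signal on the horizontal axis, with percent on a log scale. The red line lies above the grey one at all 13 steps, from 37.2% and 30.7% at a signal of 9 to 0.372%, which is 1 gene, and 0.0812% at 80.

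By strength, 23 members (8.55%) had a pooled promoter signal of at least 20, against 6.39% of other genes. At 40 or more there were 4 members (1.49%), against 1.15% of other genes, and at 70 or more there were 2 (0.743%), against 0.183%. The 2 members past 70 were nhr-35 and nhr-1.

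In the IDR-thresholded list, 7 of the 10 promoter summits lay within 500 bp upstream of the start and 3 farther upstream, with 0 downstream. Their median distance was 377.5 bp upstream, against 270 bp in other genes. In the pooled list the medians were 284.5 bp upstream in members and 294 bp in other genes.

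Chromosome X held 5 of the 10 members with an IDR-thresholded promoter site: nhr-35, nhr-1, nhr-71, nhr-48 and nhr-3. These were 5 of 23 members on X (21.7%), against 99 of 2708 other genes of X (3.66%), and 3.81% of all genes there. On the autosomes it was 5 of 246 members (2.03%), against 2.22% of other genes, and 2.22% of all autosomal genes. In this list the share of members was above that of other genes on X and not on the autosomes. In the pooled list 15 of 23 members on X had a promoter site (65.2%), against 37.3% of other genes and 37.6% of all genes of X. On the autosomes it was 96 of 246 (39.0%), against 32.5% of other genes and 32.6% of all genes.

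Each replicate alone, cut to 843 peaks, also gave 5 of 23 members on X, against 3.18% of other genes in replicate 1 and 3.58% in replicate 2. On the autosomes replicate 1 gave 7 of 246 members (2.85%), against 2.29% of other genes, and replicate 2 gave 4 (1.63%), against 2.16%, so the order on the autosomes differed between the replicates. nhr-14 took the place of nhr-3 in replicate 1, and nhr-32 that of nhr-48 in replicate 2. Members on X were longer than the family as a whole, with a median of 4483 bp, and had a median upstream gap of 5033 bp. Whether length and spacing have a part in the share on X was not tested.

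**Figure D4:**
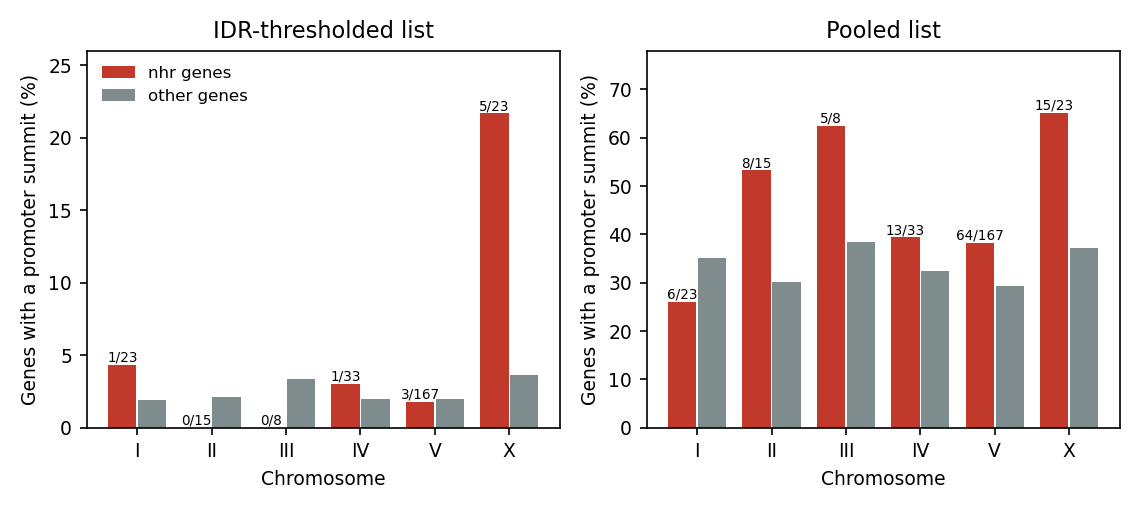
Percent of receptor genes (red) and of other protein-coding genes (grey) with an UNC-62 summit in the promoter, by chromosome, in the IDR-thresholded list on the left and the pooled list on the right, with the number of receptor genes above each red bar. Members on X stand at 5 of 23 in the IDR-thresholded list and 15 of 23 in the pooled list, and chromosome II and III have 0 in the IDR-thresholded list.

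Chromosome V holds most of the family, with 167 members (62.1%), against 24.5% of the other genes. IDR-thresholded promoter sites lay at 3 of them (1.80%), nhr-232, nhr-57 and nhr-68, against 2.01% of other genes of V. A pooled promoter site lay at 64 (38.3%), against 29.3% of other genes. In the 843 strongest peaks of replicate 1 the count on V was 6 (3.59%), against 2.11% of other genes of V. In those of replicate 2 it was 2 (1.20%), against 1.91%, so the order on V differed between the replicates. nhr-49 had the single IDR-thresholded promoter site among 23 members on chromosome I, and nhr-105 that among 33 on chromosome IV. Chromosomes II and III, with 15 and 8 members, had 0 IDR-thresholded promoter sites, against 2.10% and 3.38% of other genes there. Pooled ones lay at 8 (53.3%) and 5 (62.5%), against 30.1% and 38.5% of other genes. On chromosome I the order was the other way, with a pooled site at 6 of 23 members (26.1%), against 35.2% of other genes.

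Many receptor genes stand beside another in the genome, and the IDR-thresholded promoter sites lay at members that do not. Of the 137 members with another nhr gene as a direct protein-coding neighbour, 0 had an IDR-thresholded promoter site. Of the 132 without one 10 had (7.58%), against 2.43% of all genes. The strongest 843 peaks gave 1 of the 137, nhr-135, in replicate 1 and 0 in replicate 2. Pooled promoter sites lay at 45 of the 137 (32.8%) and 66 of the 132. The strongest pooled promoter site beside another receptor gene was that of nhr-206, with 27.05.

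Position and spacing moved with this split. The median upstream gap was 967 bp in the members with a receptor neighbour and 2539.5 bp in those without. On chromosome V, which holds 107 of the 137, the pooled counts were proportionally close. They were 40 of the 107 (37.4%) and 24 of the 60 without such a neighbour, against 29.3% of other genes of V. All 3 IDR-thresholded sites on V were in the 60. On X, 5 of 17 members without a receptor neighbour had an IDR-thresholded site (29.4%), and 0 of 6 with one, against 3.81% of all genes of X. The sources do not say how reads that match several similar genes were counted, and its part in this split was not tested.

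Counts were also split by the number of start positions. An IDR-thresholded promoter site lay at 7 of the 95 members with 2 or more start positions (7.37%) and at 3 of the 174 with 1 (1.72%), against 2.43% of all genes. In the pooled list the shares were 56.8% and 32.8%, against 33.2% of all genes. No such split of the other genes is given here, so it cannot be called a trait of receptor genes. A gene with more starts has more promoter window, and the part of that was not tested.

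For scale, 5 of 63 ceh- homeobox genes (7.94%) had an IDR-thresholded promoter site, and 7 of 1171 chemoreceptor genes (0.598%), another family expanded in nematodes. The shares in the pooled list were 33.3% and 15.8%. The receptor genes, with 3.72% and 41.3%, lay between these families in the first list and above both in the second.

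The words in the printed sequences were counted over 101 bases around each summit on both strands. TGACAG was found in 4 of the 14 IDR-thresholded peaks at members (28.6%), against 22.0% of all 815 nuclear peaks of that list, and in 3.33% of windows of the same length centred 100 bp upstream of the first start of all genes. Over the 266 pooled peaks at members it was found in 18 (6.77%), against 5.79% of all pooled peaks. Site by site, it was seen among the 14 at nhr-1, nhr-232 and the nhr-3 promoter alone, and was absent at nhr-46 and nhr-71. The remaining peak of the 4 is not identified here, so the share at members may not exceed the 22.0% of all peaks. The printed nhr-76 peak lies beyond the promoter window and is not among the 14.

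TGATNNAT was found in 3 of the 14 peaks (21.4%), at nhr-46, nhr-105 and nhr-57, against 8.83% of all IDR-thresholded peaks and 8.28% of promoters. GATAA, the core of the word bound by GATA factors, was found in 3 of the 14 (21.4%), against 39.5% of all IDR-thresholded peaks and 27.2% of promoters, and at nhr-46 and nhr-105 it overlapped a TGATNNAT match. With 14 peaks, 1 peak more or less moves such a share by several percentage points.

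Some receptors carry other symbols and are not among the 269. sex-1, which reads the number of X chromosomes in the embryo, had an IDR-thresholded site of 35.03 in its body, with 9.26 in replicate 1 and 24.81 in replicate 2. It was the 1 gene of the 6 listed with an IDR-thresholded site in promoter or body, against 3.08% of all genes. A pooled promoter site was found in 4 of the 6 (66.7%), against 33.2% of all genes. These were hizr-1, the zinc sensor, with 17.57, daf-12, the receptor that governs dauer entry, with 16.19, sex-1 with 9.242 and fax-1 with 8.642. unc-55 had a body site of 17.55 and odr-7 had none in the pooled list.

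Of 11 genes that act with these receptors, 2 had an IDR-thresholded promoter site, against 2.43% of all genes, and 4 had a pooled one (36.4%), a share close to the 33.2% of all genes. din-1, a corepressor of DAF-12, had 37.28, with 22.99 in replicate 1 and 14.43 in replicate 2. fat-6, a fatty acid desaturase under NHR-49 and NHR-80, had 32.29, with 5.528 in replicate 1 and 26.1 in replicate 2. acs-2, an acyl-CoA synthetase that is a standard target of NHR-49, had 22.4 in the pooled list, with 6.482 in replicate 1 and 15.53 in replicate 2, and dhs-16, of dafachronic acid synthesis, had 8.78. The rest of the list had no pooled promoter site, though hsd-1 and fat-5 had one in the body.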

How the data were processed

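UNC-62 ChIP-seq peaks of 2 biological replicates of 1 group were used, as lists on ce11. The signal of each peak is the value deposited by the authors. Per the README texts, a replicate list was made from the reads of 1 replicate against a control, the pooled list from the reads of both, and the IDR-thresholded list from those 3. Not given in the sources used here were the aligner, the peak caller, their versions, the read depth and the treatment of reads that match several places. Lists on ce10 were not used.

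Summits were placed on transcript starts and gene ranges of protein-coding genes of Ensembl release 115. Where windows of different genes overlapped, a summit counted for all of them. The signal in a replicate was that of its strongest peak overlapping the pooled peak by at least 1 bp. For each replicate alone, its 843 strongest peaks were taken. Intervals are exact (Clopper-Pearson) 95% binomial intervals and cover counting only. With 1 group there was no test. The receptor genes and gene lists were chosen with earlier results of these data known. Genes named were all members with an IDR-thresholded site, the 5 next in promoter and in body signal, listed members, and some genes sharing or holding their summits. nhr-47 was named after its values were seen. Alternatives covered other promoter windows, peak overlap in place of the summit, the nearest start alone, the 421 strongest peaks, each replicate alone and other backgrounds. The placement of summits was tested on simulated data. Python 3.11.15, numpy 2.4.6, pandas 2.3.3, scipy 1.17.1, pysam 0.24.0 and matplotlib 3.10.9 were used. The sequence of 1 site is not reported here.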

Additional observations from a re-analysis of the deposited data

How the results depend on the processing

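The count of receptor genes with an IDR-thresholded promoter site was 10. It was 7 with a window of 500 bp upstream to 100 bp downstream, where nhr-48, nhr-71 and nhr-232 dropped out, and 12 with a window of 2000 bp upstream to 500 bp downstream, where nhr-21 and nhr-76 came in. It was 8 when a summit counted for the gene with the nearest start alone, without nhr-68 and nhr-232, and 11 with any overlap of the peak. In the 421 strongest peaks it was 4 (nhr-1, nhr-35, nhr-49 and nhr-71), and the count for promoter or body was 7 against 12 in the full list. Fewer peaks leave fewer genes by construction. With 1 replicate left out, the promoter count ran from 9 to 12, the count for promoter or body from 11 to 15, the gene-body count was 3 and the count at internal starts 1. The difference between the share of receptor genes and that of other genes, 1.30 percentage points, ran from 0.991 to 2.05 with 1 replicate left out and from 0.350 to 1.72 under the other alternatives. It was 1.53 with other genes weighted by chromosome and 1.72 among genes with a pooled promoter site (9.01% of members, 7.29% of other genes). The strongest 843 peaks of the pooled list are the IDR-thresholded list, so that alternative gave the same values. No paired analysis was possible because there was 1 group. Depth is unknown, so a member without a site is one with no peak in these lists, not one without binding.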
